A study of Mus musculus with 5 samples.

Results

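The regions described here are the replication initiation zones of mouse chromosomes 17, 18 and 19 in CGR8 cells, an embryonic stem cell line. All rows of the deposited zone list on these chromosomes were taken, which gave 3720 of the 35512 zones (10.5%), with 1594 on chromosome 17, 1114 on chromosome 18 and 1012 on chromosome 19. The 3 chromosomes were chosen by measured values: in earlier results from the same list they had more zones in the first 10 Mb of their zone span than in the last 10 Mb. The comparison of their ends is therefore a description and is not tested.

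The cells were grown in serum with leukaemia inhibitory factor and no feeder layer, and short nascent DNA strands of 0.5 to 2 kb were purified from 3 independent cultures. There were also 1 control of sonicated genomic DNA treated with lambda exonuclease and 1 control in which RNase A was applied before the exonuclease; these were not analysed here. All 5 samples come from the same untreated line. The zone list pools the 3 cultures and gives positions only, so zones have no spread between cultures, no read depth and no score. Values for chromosomes 1 to 16 are given as mean ± SD over 16 chromosomes, which are parts of 1 genome and not biological replicates, and no test was run. Intervals given for zone numbers are exact Poisson intervals at 95%, which hold counting error and nothing else.

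DNA replication starts at origins, from which a pair of forks moves outward. The new strand begins with an RNA primer, which shields short nascent strands from lambda exonuclease and lets them be separated from broken DNA. A mammalian cell licenses many more origins than it fires in one S phase, so a zone marks a region where initiation was frequent over a population of cells. Mouse chromosomes are acrocentric: the low-coordinate end lies next to the centromere and the high-coordinate end is the distal telomere. Chromosome 17 carries the H2 complex, the mouse major histocompatibility complex, but genes and sequences at the zones were not examined here because the reference tables used are of another build than mm9.

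In the values that chose them, counted over exactly 10 Mb inward from the first and from the last zone, chromosome 19 had 301 zones at the low end and 164 at the high end. Chromosome 17 had 165 and 131, and chromosome 18 had 128 and 110. The nearest chromosome on the other side of 0 was chromosome 3, with 79 zones at the low end and 91 at the high end, followed by chromosome 13 with 74 and 116. High minus low, the difference was -1.8 zones per Mb on chromosome 18, the least lopsided of the 3, and 1.2 on chromosome 3, so they lay close together. On chromosome 4, at the far side, the same difference was 30.1 zones per Mb.

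All further values along the chromosomes use fixed 1 Mb windows that lie wholly between the first and the last zone, with each zone assigned by its midpoint. Chromosome 17 had 90 such windows, chromosome 18 had 86 and chromosome 19 had 57, which together held 3656 of the 3720 zones. Chromosomes 1 to 16 had 2152 windows.

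As whole chromosomes, 17 and 19 lay above the mean zone density of chromosomes 1 to 16 and 18 lay below it. Chromosome 17 carried 17.3 zones per Mb (16.5 to 18.2, exact Poisson) and chromosome 19 carried 17.4 (16.4 to 18.5). Of chromosomes 1 to 16, with 14.5 ± 3.20 zones per Mb (SD, n = 16), only 2 lay above each of them. Chromosome 18 carried 12.7 zones per Mb (12.0 to 13.5), and 9 of the 16 lay above it. All 3 values lay within 1 SD of the mean and inside the range of the other autosomes, from 10.2 on chromosome 14 to 22.4 on chromosome 11.

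Of the 3, chromosome 17 had the largest median zone width and chromosome 18 the smallest. All 3 medians lay within 1 SD of the mean of chromosomes 1 to 16. Taken as medians over windows, chromosome 19 was above chromosome 17, at 2200 against 2000 bp. The median zone was 3000 bp wide on chromosome 17 (quartiles 1600 and 5600 bp), 2800 bp on chromosome 19 (quartiles 1600 and 5000 bp) and 2200 bp on chromosome 18 (quartiles 1200 and 3600 bp), against 2569 ± 476 bp on chromosomes 1 to 16. Wide zones, of at least 10 kb, were 11.2% of the total on chromosome 17, 9.09% on chromosome 19 and 3.23% on chromosome 18, against 6.79% ± 3.24. The 179 zones of that size on chromosome 17 held 38.2% of its covered length, and the 36 on chromosome 18 held 14.9%. In all, zones covered 8.06% of the span of chromosome 17, 7.59% of chromosome 19 and 3.75% of chromosome 18 (chromosomes 1 to 16: 5.73% ± 2.39). Chromosome 18 thus had fewer zones per Mb and narrower ones than chromosomes 17 and 19. Its widest zone, of 23.8 kb, was narrower than the widest zone of every other autosome.

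Spacing, the zone-free distance between neighbours, had a median of 17600 bp on chromosome 17 (quartiles 5400 and 50200 bp), 21200 bp on chromosome 19 (quartiles 6800 and 56100 bp) and 36400 bp on chromosome 18 (quartiles 13000 and 90400 bp). The corresponding medians of chromosomes 1 to 16 were 27294 ± 8842 bp. Taken as medians over windows, spacing on chromosome 18 was close to the mean of chromosomes 1 to 16, at 54300 against 53744 bp. Chromosomes 17 and 19 were then nearly equal, at 39800 and 39600 bp. Very short spacings under 2 kb made up 13.9% of those on chromosome 17, 10.98% on chromosome 19 and 5.48% on chromosome 18, against 9.07% ± 3.40. The shortest spacing was 800 bp on each, as on every other autosome, so the list separates no zones closer than that. Whether closer zones were joined when the list was made was not tested. Stretches of over 500 kb without a zone numbered 20 on chromosome 17, 19 on chromosome 18 and 9 on chromosome 19, or 1.26%, 1.71% and 0.89% of the spacings, against 1.88% ± 0.65. They took up 20.2% of the span of chromosome 17, 15.6% of chromosome 18 and 12.0% of chromosome 19, against 21.8% ± 4.64. As a share of the spacings, these stretches were within 1 SD of chromosomes 1 to 16 on chromosomes 17 and 18. As a share of the span, they were so on chromosome 17 only.

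The window counts showed the same contrast. Windows of chromosome 17 had a median of 13 zones and ranged from 0 to 67. Those of chromosome 18 had a median of 11 and a highest count of 36, which was below the highest window of each of the 18 other autosomes. Those of chromosome 19 had a median of 14 and a highest count of 50. The variance of the counts over their mean, a measure of unevenness, was 13.3 on chromosome 17, 9.25 on chromosome 19 and 6.12 on chromosome 18. Among chromosomes 1 to 16 it was 10.1 ± 2.75, with only chromosome 4 above chromosome 17 and all 16 above chromosome 18. This ratio was not adjusted for mean zone number, and shares of zones placed chromosomes 17 and 18 less far out. The densest 10% of windows held 28.8% of the zones on chromosome 17 and 26.0% on chromosome 18, with 7 and 12 of the 16 above. The smallest share of windows holding 50% of the zones was 21.1% and 25.6%, with 12 and 3 of the 16 above. For that share, a lower value is more uneven. Counts in adjacent windows correlated at r = 0.65 over the 90 windows of chromosome 17, 0.53 over the 57 of chromosome 19 and 0.44 over the 86 of chromosome 18, against 0.61 ± 0.10. These correlations are over neighbouring parts of the same pooled list and are given as a description.

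**Figure D1:**
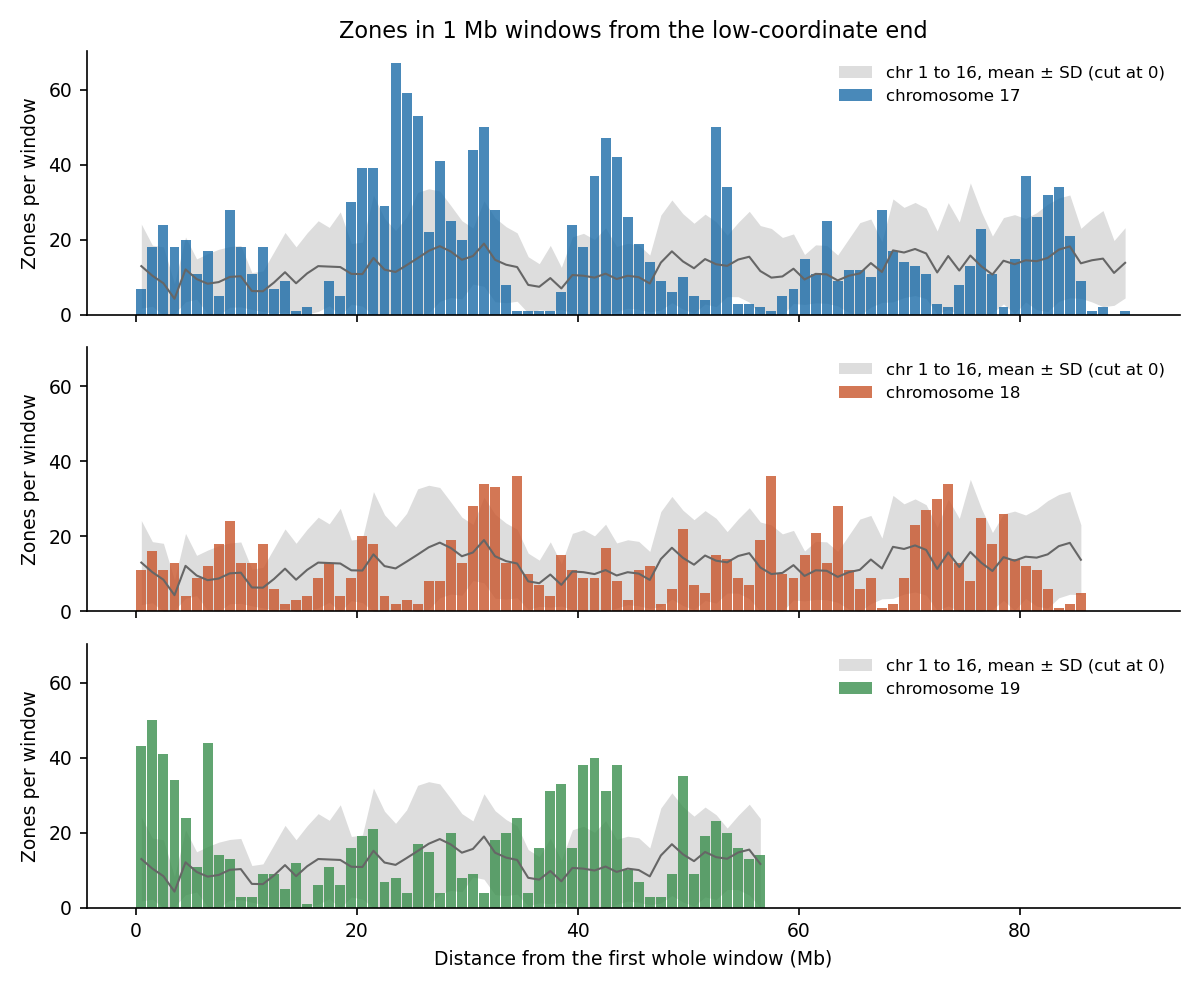
Zones in each 1 Mb window of chromosomes 17, 18 and 19 (bars), by distance in Mb from the first whole window at the low-coordinate end; the line and grey band are the mean ± 1 SD of chromosomes 1 to 16 at the same distance, cut at 0. Chromosome 17 is highest in a block about 23.9 Mb from its first zone, chromosome 18 has no window above 36 zones, and chromosome 19 starts with windows of 43, 50 and 41 zones.

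Chromosome 17 was built of strongly contrasting blocks. From the low end, its successive blocks of 10 windows held 16.6, 9.2, 39.4, 16.4, 22.8, 11.4, 15.3, 10.1 and 16.3 zones per Mb. Chromosomes 1 to 16 at the same distances had means from 9.54 to 14.8, and single chromosomes among them had from 1.5 to 43.5. The contrast between blocks within each of those chromosomes was not compared. The third block, 20 to 30 Mb from the low end, stood highest, at 39.4 zones per Mb against 14.5 ± 9.91, and 1 of the 16 chromosomes lay above it, at 43.5. Zones covered 26.6% of that block, against 6.10% ± 7.49, and had a median width of 4600 bp, against 2506 ± 1006 bp. The fifth block, at 22.8 zones per Mb, lay just above all 16 other values at its distance, the highest of which was 22.7.

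The densest windows of chromosome 17 were adjacent. The window from 27000001 to 28000000 held 67 zones, which covered 61.3% of it with a median width of 6000 bp and a median spacing of 2100 bp. The next, from 28000001 to 29000000, held 59 zones and was 37.7% covered. The third, from 29000001 to 30000000, held 53 zones and was 26.6% covered. These 3 windows formed a run at or above 33 zones, the 90th percentile of the windows of chromosomes 1 to 16, and held 179 zones, or 11.2% of those of the chromosome, of which 38 were 10 kb or wider. A second such run of 3 windows, from 45000001 to 48000000, held 126 zones, of which 24 were 10 kb or wider, with a coverage of 26.0%.

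The widest zones of chromosome 17 lay in windows of 50 zones or more. The widest spanned 61.2 kb from 27427001 to 27488200 in the densest window, and 33 other zones had their midpoints within 250 kb of its midpoint. The second spanned 44.0 kb from 35225201 to 35269200, in a window of 50 zones. The third spanned 42.8 kb from 56501401 to 56544200, also in a window of 50 zones. Neither of these windows of 50 zones was part of a run of 3.

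Between these blocks chromosome 17 had near-empty stretches. It had 3 runs of 3 or more windows at or below 2 zones, the 10th percentile of the windows of chromosomes 1 to 16, which had 2.0 ± 1.63 such runs each. Windows at or below 2 zones made up 16.7% of its windows, against 14.3% ± 3.73. The first, from 18000001 to 21000000, held 3 zones in 3 Mb. The second, from 38000001 to 42000000, held 4 zones in 4 Mb, 1 in each window. The third, from 90000001 to 94000000, held 4 zones and formed the high end of the chromosome. The longest zone-free stretches fell in or next to these runs, from 91493001 to 93736800 (2.24 Mb), from 18165001 to 19624200 (1.46 Mb) and from 37377001 to 38681200 (1.30 Mb). Whether unmappable sequence lies in them was not tested.

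Chromosome 18 had neither dense nor sparse runs by these thresholds. A dense run was also absent from 4 of chromosomes 1 to 16, and a sparse run from 2 of them. Of its 86 windows, 5 reached 33 zones and 8 had 2 zones or fewer, and in neither group did 3 stand together. Its blocks of 10 windows from the low end held 13.1, 8.1, 9.7, 19.1, 9.9, 13.1, 11.5 and 21.8 zones per Mb, each inside the range of chromosomes 1 to 16 at that distance. The windows with most zones were from 38000001 to 39000000 and from 61000001 to 62000000, with 36 zones each, and from 35000001 to 36000000, with 34. These windows were 17.4%, 17.8% and 12.5% covered, well under the 61.3% of the densest window of chromosome 17.

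The widest zones of chromosome 18 were 23.8 kb, from 60853601 to 60877400, then 19.2 kb, from 82719001 to 82738200, and 17.8 kb, from 38246801 to 38264600. The first of them lay in a window of only 19 zones, next to the window of 36 zones that begins at 61000001, and had 19 other zones within 250 kb. The longest zone-free stretches were from 71402201 to 72599600 (1.197 Mb), from 86883201 to 87825400 (0.94 Mb) and from 51202601 to 52085600 (0.88 Mb). The longest zone-free stretch of each of chromosomes 1 to 16 was longer than this, the shortest of these being 1.23 Mb on chromosome 11.

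Chromosome 19, the shortest of the autosomes with a zone span of 58.1 Mb, was densest at its low end. Its first 4 windows, from 4000001 to 8000000, held 43, 50, 41 and 34 zones and formed the only dense run of the chromosome. These 168 zones were 16.6% of those on the chromosome, covered 34.6% of the 4 Mb and had a median width of 5400 bp, and 47 of them were 10 kb or wider. The next windows held 24, 11, 44, 14, 13 and 3 zones, of which only the 44 reached the 90th percentile. The blocks of 10 windows then held 7.8, 12.3, 17.5 and 21.4 zones per Mb. Away from the low end, 4 adjacent windows from 44000001 to 48000000 held 38, 40, 31 and 38 zones. They did not form a dense run because the window of 31 zones was below the 90th percentile. The low block, at 27.7, was above all 16 other chromosomes at that distance, whose highest was 18.4 on chromosome 16, and the following block of 7.8 was below 12 of them.

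The widest zones of chromosome 19 were 54.8 kb, from 7202601 to 7257400, and 38.6 kb, from 6512201 to 6550800, both in its dense run. The third, of 38.2 kb from 53065801 to 53104000, lay 8.20 Mb from the last zone in a window of 35 zones. Among the 3 windows with most zones, the one from 10000001 to 11000000 held 44 zones with a median width of 5600 bp and stood between windows of 11 and 14 zones. Only 1 window of the chromosome had 2 zones or fewer (1.75%, against 14.3% ± 3.73 of the windows of chromosomes 1 to 16). The longest zone-free stretches were from 19079001 to 20450000 (1.37 Mb), from 39266401 to 40344600 (1.08 Mb) and from 13129801 to 13862000 (0.73 Mb). The last of these began 9.93 Mb from the first zone, at the far side of the dense low end.

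The ends of the chromosomes were then set side by side in windows. In its first 10 windows chromosome 19 had 27.7 zones per Mb (24.5 to 31.2, exact Poisson) and in its last 10 it had 16.1 (13.7 to 18.8). Chromosome 17 had 16.6 (14.2 to 19.3) and 16.3 (13.9 to 19.003), and chromosome 18 had 13.1 (10.95 to 15.5) and 12.0 (9.95 to 14.3). The window counts varied far more than Poisson counts would, as the ratios of variance to mean above show, so these intervals are too narrow to compare the ends by, and the values stand as a description. Chromosomes 1 to 16 had 9.54 ± 3.85 at the low end and 22.6 ± 9.01 at the high end. As log2 of low over high, the values were 0.03 on chromosome 17, 0.13 on chromosome 18 and 0.78 on chromosome 19, against -1.23 ± 0.68 on chromosomes 1 to 16, whose highest was -0.21 on chromosome 3.

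**Figure D2:**
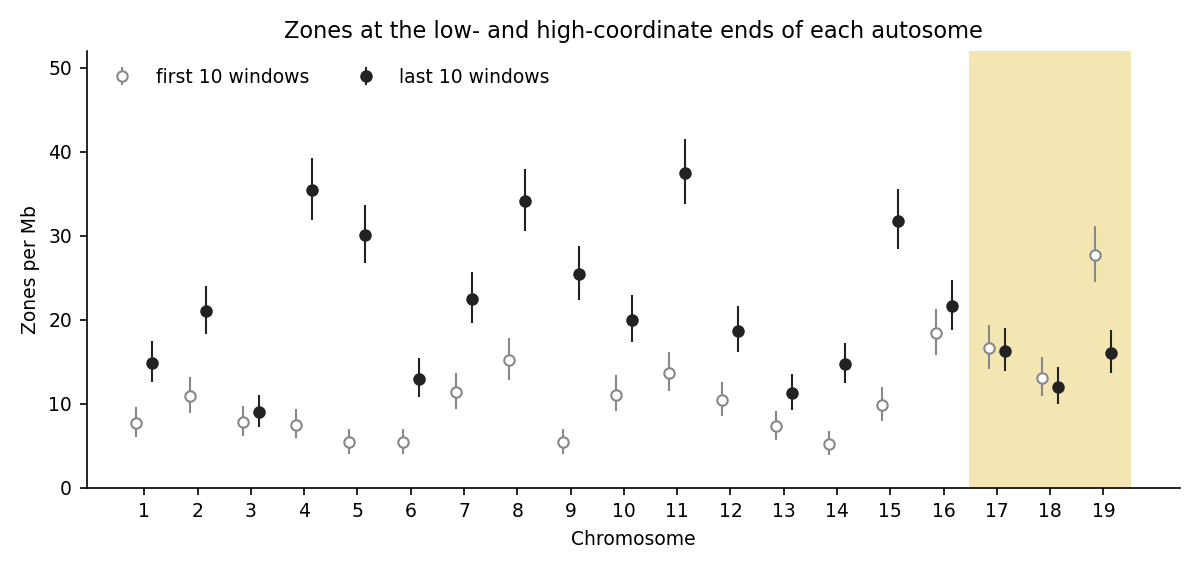
Zones per Mb in the first 10 (open circles) and last 10 (filled circles) whole 1 Mb windows of each autosome, with 95% exact Poisson intervals for counting error only; chromosomes 17, 18 and 19 are shaded. On chromosomes 1 to 16 the filled circle lies above the open one, on 17 and 18 both circles lie within 1.1 zones per Mb of each other, and on 19 the open circle, at 27.7, lies above the filled one, at 16.1.

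The 3 chromosomes differed in where each end stood among the other autosomes. At the low end, 1 of the 16 other chromosomes was denser than chromosome 17, 3 were denser than chromosome 18 and none was denser than chromosome 19. At the high end, 11, 14 and 11 of the 16 were denser. Chromosome 19 had a dense low end, while its high end lay within 1 SD of chromosomes 1 to 16. Chromosome 18 lay within 1 SD at its low end and more than 1 SD below the mean at its high end. Chromosome 17 lay above the mean by more than 1 SD at its low end and within 1 SD at its high end.

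At the high ends of chromosomes 17 and 18 the last 5 windows held fewer zones than the 5 before them. In its last 10 windows chromosome 17 held 37, 26, 32, 34, 21, 9, 1, 2, 0 and 1 zones in order, so windows 6 to 10 from the end averaged 30 and the last 5 averaged 2.6. On chromosome 18 the same windows held 25, 18, 26, 14, 12, 11, 6, 1, 2 and 5 zones, with averages of 19 and 5.0. Across the cut between these parts its counts were 14, 12, 11 and 6, a more gradual fall than on chromosome 17. Only 3 of the 16 other chromosomes had more than 30 in windows 6 to 10, so the part of chromosome 17 just inside its sparse end was dense. The last 5 windows were the lowest of all 19 autosomes on chromosome 17 and the next lowest on chromosome 18, against 23.6 ± 12.1 on chromosomes 1 to 16, where the lowest was 6.6 on chromosome 13. A density lower in the last 5 windows than in the 5 before them was found on 5 of the 16, with the lowest ratio at 0.29 on chromosome 12, against 0.087 on chromosome 17, 0.26 on chromosome 18 and 1.15 on chromosome 19.

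The length counted as an end changed the direction. With ends of 20 windows the high end was the denser one on all 3: 12.9 and 13.2 zones per Mb on chromosome 17 (log2 of low over high -0.033), 10.6 and 13.8 on chromosome 18 (-0.38), and 17.8 and 20.4 on chromosome 19 (-0.20). Chromosome 16 was then the only autosome with a denser low end, at 0.52. Ends of 20 windows took in a larger part of the 57 windows of chromosome 19 than of the 193 of chromosome 1. On chromosome 19, the block 10 to 20 Mb from the high end held 24.7 zones per Mb. The block at the same distance from its low end held 7.8. With ends scaled to length, the first and last 10% of the windows, the low end stayed denser on chromosomes 17, 18 and 19, at 0.23, 0.31 and 0.95. The highest of chromosomes 1 to 16 was then -0.35, on chromosome 16. With ends of 5 windows the low end was denser on all 3, with 2.74, 1.14 and 1.16, and also on chromosome 12, at 0.42. Measured by covered length in 10 windows, chromosomes 17 and 18 had the higher value at the high end (-0.31 and -0.49), and chromosome 19 kept the low end at 1.98, with 19.03% of the first 10 windows and 4.84% of the last 10 covered. Leaving out windows without a zone, or zones under 1 kb, also put chromosome 17 below 0, at -0.13 and -0.049.

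Over the whole length, zone number had little relation to position on these chromosomes. Spearman's rho of window count with window position was -0.17 on chromosome 17 (n = 90 windows), 0.05 on chromosome 18 (n = 86) and 0.01 on chromosome 19 (n = 57). On chromosomes 1 to 16 it was 0.25 ± 0.24 and above 0 on 13 of the 16, from -0.31 on chromosome 16 to 0.56 on chromosome 15. Neighbouring windows share regional density, so these are descriptions. By rho and by the position of the median zone, chromosome 16 was further to the low side than any of the 3: its median zone lay at 33.5% of the span, against 39.5% on chromosome 17, 53.0% on chromosome 18, 53.8% on chromosome 19 and 59.2% ± 11.8 on chromosomes 1 to 16.

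The densest stretch of 10 windows was at a different place on each chromosome. On chromosome 19 it was the first 10 windows, from 4000001 to 14000000. On chromosome 17 it ran from 26000001 to 36000000 with 41.0 zones per Mb, 22 Mb from the low end and 58 Mb from the high end. On chromosome 18 it ran from 74000001 to 84000000 with 21.8 zones per Mb, 6 Mb from the high end and centred at 87.2% of the windows. On chromosomes 1 to 16 its centre lay at 62.4% ± 25.4 of the windows, and it lay below the midpoint on 4 of the 16. The sparsest stretch of 10 windows held 8.0 zones per Mb on chromosome 17, 7.8 on chromosome 18 and 6.5 on chromosome 19, all above the 3.31 ± 1.19 of chromosomes 1 to 16, whose highest was 5.9. The shorter chromosomes offer fewer stretches from which the lowest is taken, and the part of this in the difference was not tested.

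Width and spacing were followed over 10 segments of each chromosome, of equal numbers of windows to within 1. On chromosome 19 the median width was 5000 bp in the first segment and 2400 bp in the last. On chromosomes 1 to 16 it was 1881 ± 538 bp in the first and 3213 ± 1183 bp in the last, and the first segment reached at most 3000 bp. On chromosome 17 it was 2200 bp in the first segment, 5000 bp in the third, 4200 bp in the fourth and 2600 bp in the last. The third and the fourth segment of chromosome 17 lay above all 16 other chromosomes, which had at most 3200 and 4000 bp there. On chromosome 18 the medians stayed between 1600 and 2800 bp in all 10 segments.

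Spacing mirrored the widths. In the first segment of chromosome 19 the median spacing was 7400 bp, against 55856 ± 29209 bp on chromosomes 1 to 16, whose shortest was 12400 bp. In the third segment of chromosome 17 it was 6800 bp, against 43275 ± 17710 bp, whose shortest was 20000 bp. The third to the sixth segment of chromosome 17 were all spaced more closely than on any of the 16. In the last segment the medians were 22400 bp on chromosome 17, 37600 bp on chromosome 18 and 34000 bp on chromosome 19, against 23388 ± 14367 bp.

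**Figure D3:**
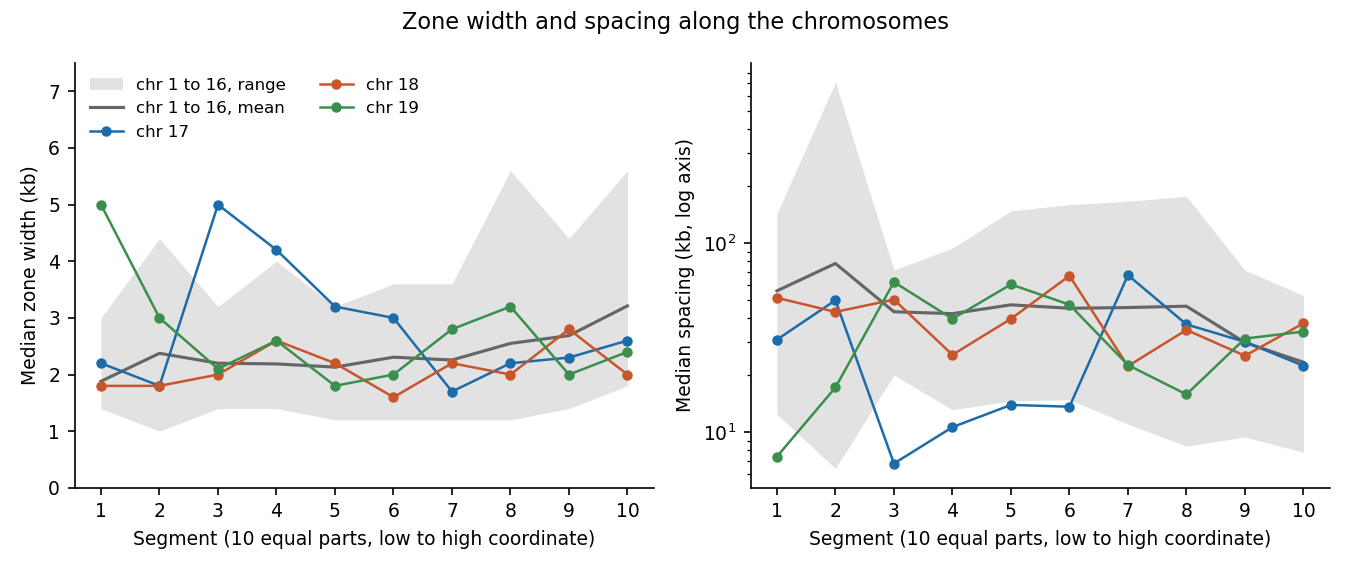
Median zone width in kb (left) and median spacing between zones in kb on a log axis (right) in each of 10 equal segments of the 1 Mb windows from the low to the high coordinate end, for chromosomes 17, 18 and 19 (points), with the mean (grey line) and the range (grey area) of chromosomes 1 to 16. Chromosome 19 has its widest and closest zones in the first segment and chromosome 17 in the third.

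Between the ends of 10 windows, the low end had the wider zones on chromosome 19 but not on chromosomes 17 and 18. Its first 10 windows had a median width of 4400 bp and its last 10 one of 2200 bp, a difference of 2200 bp. On chromosome 17 the medians were 2200 and 2600 bp and on chromosome 18 they were 1800 and 2300 bp, so zones were narrower at the low end. With ends of 5 windows the low end had the wider zones on these chromosomes too, by 200 bp on chromosome 17 and 600 bp on chromosome 18. On chromosomes 1 to 16 the low end had the narrower zones on 15 of the 16, with a difference of -1419 ± 1067 bp.

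Zones in windows of similar zone number had similar median widths on all these chromosomes. In windows of 1 to 5 zones the median width was 1200 bp on each of chromosomes 17, 18 and 19, against 1200 ± 81.6 bp on chromosomes 1 to 16. In windows of 11 to 20 zones it was 2000, 2000 and 2200 bp, against 2069 ± 140 bp. In windows of 31 or more it was 4600, 3400 and 4000 bp, against 4056 ± 435 bp. All 15 of these medians, over 5 classes and 3 chromosomes, lay inside the range of the 16 other chromosomes. In the densest class chromosome 17 was at the upper bound of that range and chromosome 18 at the lower bound. That class has no upper limit, so zone number was not matched within it. It held 705 zones in 16 windows on chromosome 17, 458 in 12 on chromosome 19 and 173 in 5 on chromosome 18. The share of zones of 10 kb or more lay inside that range in 13 of 15 cases and the median spacing in 14 of 15.

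**Figure D4:**
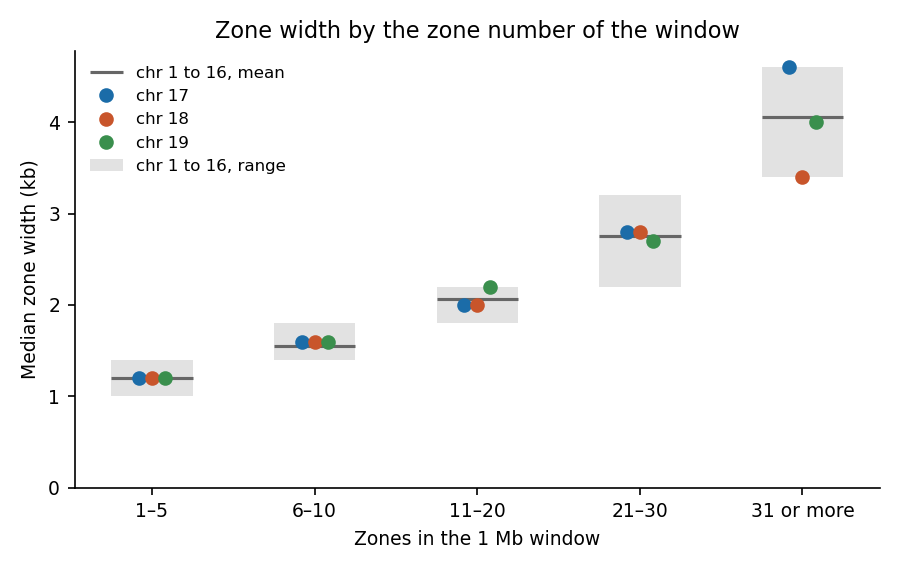
Median zone width in kb by the number of zones in the zone's 1 Mb window, for chromosomes 17, 18 and 19 (points); grey bars give the range and grey lines the mean of chromosomes 1 to 16. The points lie inside the grey bars in all 5 classes, from 1.2 kb at 1 to 5 zones up to 4.6 kb on chromosome 17 at 31 zones or more.

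The chromosomes also differed in how many windows fell in each class. Windows of 31 or more zones made up 17.8% of chromosome 17, 5.81% of chromosome 18 and 21.1% of chromosome 19, against 12.4% ± 7.65. Windows of 1 to 5 zones made up 23.3%, 20.9% and 17.5%, against 27.2% ± 7.09. Windows of 11 to 20 zones made up 36.0% of chromosome 18 and 33.3% of chromosome 19, against 26.6% ± 5.26 and 25.6% of chromosome 17. Within a chromosome, Spearman's rho of zone width with the zone number of the window was 0.49 on chromosome 17, 0.44 on chromosome 18 and 0.45 on chromosome 19, against 0.44 ± 0.05.

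In windows of 21 to 30 zones, the share of zones of 10 kb or more was 1.09% on chromosome 19. The lowest of chromosomes 1 to 16 was 2.34%. The value of chromosome 19 rests on only 92 zones in 4 windows, so a few zones would move it. In the densest windows the share of zones of 10 kb or more was 20.9% on chromosome 17, 17.5% on chromosome 19 and 9.83% on chromosome 18, against 14.7% ± 3.35 and a range of 9.17% to 20.6% on chromosomes 1 to 16. Median spacing in these windows was 7800 bp on chromosome 17, 11500 bp on chromosome 19 and 14800 bp on chromosome 18, against 10656 ± 2232 bp. In the sparsest class chromosome 17 had a median spacing of 324600 bp, above the 273400 bp that was the highest of chromosomes 1 to 16. Spacing in a window is largely fixed by its zone number, so these spacings mostly restate the classes. The densest class was not matched for zone number, so its shares and spacings are not compared at equal density.

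Close neighbours formed chains, taken as 5 or more zones with at most 10 kb between each and the next. Chains held 19.01% of the zones of chromosome 17, 13.0% of those of chromosome 19 and 4.22% of those of chromosome 18, against 10.05% ± 5.55 and at most 18.1% on chromosomes 1 to 16. By number of zones, the largest chain of chromosome 17 had 26, more than any on chromosomes 1 to 16 (at most 24). It ran for 247.4 kb from 27149001 to 27396400, in the densest window of the chromosome, and zones covered 81.6% of it. In length this chain was exceeded by the largest chains of chromosomes 10 and 8, of 359.0 and 259.6 kb. The largest on chromosome 19 had 9 zones, from 5022601 to 5136200, and the largest on chromosome 18 had 8, from 35973601 to 36052800.

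The 3 chromosomes also differ in the number of genes named to them. By the RefSeq table, the number of protein-coding genes divided by the zone span in Mb was 11.5 on chromosome 17, 5.81 on chromosome 18 and 12.1 on chromosome 19, against 8.45 ± 2.32 on chromosomes 1 to 16. Chromosome 18 thus had 2.18 zones per gene, above all 16 others, whose highest was 2.13 on chromosome 5. Chromosomes 17 and 19 had 1.51 and 1.44, against 1.75 ± 0.24. Only the number of genes on each chromosome was used, and where the genes lie relative to the dense and sparse ends was not analysed here.

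The first and the last zones show how far the list reaches. The first zone of chromosome 17 spanned 10 kb from 3075201 to 3085200 with 8 others within 250 kb, and its last zone spanned 1.0 kb from 94968401 to 94969400 with 1 other. On chromosome 18 the first zone was from 3004601 to 3006200, with 2 others within 250 kb, and the last from 90748201 to 90749600, with 4 others. On chromosome 19 the first zone was from 3203201 to 3206200, with 10 others within 250 kb, and the last from 61300001 to 61305800, with 2 others. On chromosomes 17 and 19 the first zone thus had more neighbours than the last, and on chromosome 18 it had fewer.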

How the data were processed

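The deposited file holds zone coordinates in bp for build mm9, made by the authors from the 3 nascent strand replicates combined, per the series' design text. The submitters' processing notes name CASAVA 1.8 and SICER; their settings, and the use of the controls, are not given in the sources used here. Starts are counted from 0 and the end is the last base of the zone, since all widths are then multiples of 200 bp; positions are printed counting from 1. A threshold on signal sets which zones are listed, and regions of low mappability can lose zones. Depth is unknown.

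The chromosomes and measures were chosen with earlier results of these data known. Zones were counted in whole 1 Mb windows by midpoint, and spacings by their midpoint. Regions named for chromosomes 17, 18 and 19 were, on each, the first and last zone, the 3 widest zones, the 3 densest windows, the 3 longest zone-free stretches and all runs of 3 or more windows at or beyond the 90th or 10th percentile of chromosomes 1 to 16; stretches of 10 windows and chains were added after values were seen. Gene numbers came from a RefSeq table of GRCm38.p6, of which no coordinate was used. The functions were checked on simulated lists. Python 3.11.15, numpy 2.4.6, scipy 1.17.1, pandas 2.3.3 and matplotlib 3.10.9 were used.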

Additional observations from a re-analysis of the deposited data

How the results depend on the processing

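Of 124 alternative values for 6 measures, 99 kept their sign and moved by less than 1 SD over chromosomes 1 to 16, 14 moved by more, and 11 changed sign. For log2 of zones at the low over the high end, ends of 5 windows gave 2.74 on chromosome 17 and 1.14 on chromosome 18; ends of 20 windows gave -0.033, -0.38 and -0.20 on chromosomes 17, 18 and 19. Covered length gave -0.31, -0.49 and 1.98, and -2.00 for the mean of chromosomes 1 to 16. On chromosome 17, leaving out windows without a zone gave -0.13 and leaving out zones under 1 kb gave -0.049. The difference in median width between the ends became 200 bp on chromosome 17 and 600 bp on chromosome 18 with ends of 5 windows, and 800 bp on chromosome 19 with 20. Without stretches over 500 kb, density was 21.7 zones per Mb on chromosome 17 and 18.4 on chromosomes 1 to 16. As medians over windows, widths were 2000 bp on chromosome 17, 2200 bp on chromosome 19 and 1925 bp on chromosomes 1 to 16, and spacings were 39800, 54300 and 39600 bp on chromosomes 17, 18 and 19 and 53744 bp on chromosomes 1 to 16; zone-poor windows then count as much as dense ones. The position correlation of chromosome 19 became -0.025 with covered length and -0.010 without zones under 1 kb. The cause of the other changes was not tested. No paired analysis was possible because only pooled zones were given, so replicates could not be left out in turn either. Gene and sequence context of zones was not analysed, as no annotation of mm9 was used. Weak zones missed by the authors' threshold cannot be bounded.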
